A study of Mus musculus with 2 samples.

Results

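The potassium channel genes, those whose names begin with Kcn, were examined for the Polycomb group protein Ring1B at their promoters in mouse embryonic stem (ES) cells. Members were taken by gene name from the array annotation, including names joined to a divergent neighbour, with at least 3 probes and without Kcnk9, which is not analysed here. They numbered 82 of 16908 genes measured on the arrays. The probe minimum removed none of them, since the fewest probes for a member was 8. Chromatin of ES cells was fixed with formaldehyde and immunoprecipitated with a monoclonal Ring1B antibody (IP), and the recovered DNA was labelled with Cy5. Input DNA, taken without the antibody, was labelled with Cy3 and hybridised to the same tiling array. The promoter set was spread over 2 slides that had 0 probes in common. Each promoter was therefore measured once, without replicates, a mock immunoprecipitation or a second condition, so that samples could not be tested against each other. The labels state no strain, genotype, age or treatment of the cells. Muscle opens the source names, against ES cells in the titles, and the cells were taken as ES cells.

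Ring1B, encoded by Rnf2, is the catalytic subunit of Polycomb repressive complex PRC1 and attaches ubiquitin to histone H2A. In ES cells Polycomb complexes are known mainly at CpG-rich promoters of lineage regulators that are kept silent until differentiation. Potassium channels let potassium leave or enter a cell and set its resting voltage and firing. Voltage-gated channels are formed by Kcna, Kcnc, Kcnd, Kcnh and Kcnq subunits, and Kcnf, Kcng, Kcns and Kcnv subunits are electrically silent modifiers that assemble with other voltage-gated subunits. Calcium-activated channels come from Kcnma1 and the Kcnn genes, inward rectifiers from the Kcnj genes and tandem-pore leak channels from the Kcnk genes. Accessory subunits are encoded by the Kcnab, Kcne, Kcnip and Kcnmb genes. Most of these channels are known for their part in nerve and muscle.

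Promoter DNA is shown for the 4 highest and the 2 lowest members that had at least 20 probes and a RefSeq promoter entry, because the results below turn on them. RefSeq entries matched 62 of the 82 members. Each line gives the 250 bases before the RefSeq transcription start, read 5′ to 3′ on the strand of the gene, from build GRCm38.p6, with CpG dinucleotides in capitals. The windows lie at chr12:11150843-11151092 on the minus strand for Kcns3, chr12:99964249-99964498 on the plus strand for Kcnk13 and chr10:112269767-112270016 on the plus strand for Kcnc2. Those of Kcnma1 at chr14:24004206-24004455, minus strand, Kcnj9 at chr1:172329323-172329572, minus strand, and Kcnj12 at chr11:61065554-61065803, plus strand, follow.
Kcns3: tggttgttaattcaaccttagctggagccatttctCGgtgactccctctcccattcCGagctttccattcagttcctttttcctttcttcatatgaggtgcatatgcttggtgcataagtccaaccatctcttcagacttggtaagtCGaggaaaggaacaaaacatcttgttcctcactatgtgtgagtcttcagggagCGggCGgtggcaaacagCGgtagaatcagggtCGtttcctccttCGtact
Kcnk13: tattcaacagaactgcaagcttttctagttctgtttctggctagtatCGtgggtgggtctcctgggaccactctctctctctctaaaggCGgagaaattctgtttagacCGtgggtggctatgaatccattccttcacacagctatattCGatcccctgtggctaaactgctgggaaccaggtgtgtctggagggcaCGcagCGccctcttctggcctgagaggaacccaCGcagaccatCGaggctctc
Kcnc2: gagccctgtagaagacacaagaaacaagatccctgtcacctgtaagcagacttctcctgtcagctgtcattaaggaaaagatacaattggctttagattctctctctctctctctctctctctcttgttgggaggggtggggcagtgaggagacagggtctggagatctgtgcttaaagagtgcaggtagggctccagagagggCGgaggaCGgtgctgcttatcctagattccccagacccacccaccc
Kcnma1: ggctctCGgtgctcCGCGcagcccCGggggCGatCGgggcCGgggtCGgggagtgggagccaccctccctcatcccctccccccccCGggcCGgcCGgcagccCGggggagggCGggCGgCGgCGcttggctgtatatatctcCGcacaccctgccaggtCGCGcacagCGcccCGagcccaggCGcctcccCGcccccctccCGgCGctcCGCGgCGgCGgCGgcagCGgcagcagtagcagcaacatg
Kcnj9: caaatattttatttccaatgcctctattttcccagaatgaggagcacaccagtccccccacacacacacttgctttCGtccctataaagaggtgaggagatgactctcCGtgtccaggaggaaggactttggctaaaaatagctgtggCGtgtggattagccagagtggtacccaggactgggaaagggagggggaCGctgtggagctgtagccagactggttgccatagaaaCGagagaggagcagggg
Kcnj12: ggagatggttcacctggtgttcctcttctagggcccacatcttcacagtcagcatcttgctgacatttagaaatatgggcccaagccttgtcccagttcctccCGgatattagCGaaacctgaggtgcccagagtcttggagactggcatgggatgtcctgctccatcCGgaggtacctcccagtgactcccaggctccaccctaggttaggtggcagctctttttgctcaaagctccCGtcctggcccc
The windows of the 4 highest members held 8, 8, 2 and 31 CpG in the order shown, and those of Kcnj9 and Kcnj12 held 5 and 4. CpG number therefore ranged widely among the high members. Kcnc2 has 4 RefSeq windows and Kcns3 has 2. For a gene with several, the window that held the most of its probes was used, and the first where windows tied. These counts rest on that choice.

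The probes with the most extreme ratio in 5 of the tiles are shown next, since they carry the measured signal, again with CpG in capitals. Their coordinates are those of the array files, whose build the sources used here do not give, and they are not mixed with the RefSeq windows above. The highest probe of Kcna1 lies at chr6:126667197-126667241, that of Kcns3 at chr12:11214746-11214797, that of Kcnc2 at chr10:111778307-111778355 and that of Kcnk13 at chr12:97462157-97462205. The lowest probe of Kcnj12 lies at chr11:61147515-61147563.
Kcna1: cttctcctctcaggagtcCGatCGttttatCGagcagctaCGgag
Kcns3: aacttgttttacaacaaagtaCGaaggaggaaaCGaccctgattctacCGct
Kcnc2: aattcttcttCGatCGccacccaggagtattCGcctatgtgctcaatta
Kcnk13: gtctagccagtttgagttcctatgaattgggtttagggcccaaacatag
Kcnj12: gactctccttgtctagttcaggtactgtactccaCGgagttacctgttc
The Kcna1 probe, 399 bp inside the gene from the array's start, gave a processed signal of 15002 in IP DNA and 1122 in input DNA. Kcns3's probe, at -448 bp from the array's start (upstream), gave 3836 in IP DNA and 246.6 in input DNA. In sequence it is the complement of the last bases of the Kcns3 promoter shown above and runs on across the RefSeq start. For Kcnj12 the order was turned, with 331 in IP DNA and 6998 in input DNA at 184 bp inside the gene.

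Every gene value below is the mean, over all probes that carry the gene's name (its tile), of the log2 ratio of IP over input, minus the median probe of its array, given with the SD over those probes. A value of 0 is the median probe, and 1 is 2-fold above it. The 82 members held 2897 probes, 8 to 62 per gene with a median of 36, over a median of 7837 bp. Some tiles join distant probes: that of Kcnh8 spans 385018 bp, that of Kcnj10 42301 bp and that of Kcnh6 31116 bp, so their means are not those of a single promoter. Their SD over probes ranged from 0.75 to 1.90 with a median of 1.33, larger than the SD of 0.47 over the members' means. IP DNA stood well above background for 77.2% of array 1 probes and 80.6% of array 2 probes, and input DNA for 74.1% and 76.3%. Hox genes, known Polycomb targets, reached 1 or more in 27 of 33 cases (median 1.41), and pluripotency genes in 0 of 9 (median 0.02). Precision is limited by there being 1 array per gene.

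Potassium channel genes had a median log2 ratio of 0.08, against -0.10 over all genes. The middle of their distribution lay between -0.24 and 0.37 (quartiles), against -0.36 and 0.16 over all genes. Of the members, 44 of 82 (53.7%) were above 0, against 39.2% of all genes. Those at or above 0.5 numbered 15, against 7.62% of all genes, and those at or below -0.5 numbered 9, against 15.5% of all genes. At the outer thresholds the share was near the background. Kcns3 and Kcna1, 2 of 82 (2.44%), were at or above 1, against 1.99% of all genes, and Kcnj12 and Kcnj9, 2 of 82, were at or below -1, against 1.85% of all genes. Without probes dim in input, Kcna1 had 0.98 and the high count was 1, against 2.31% of all genes. It was 4 without centring, against 2.99%, and 4 by the median of the probes, against 2.39%. No member was at or below -1 with normexp background correction, against 0.361% of all genes, without centring (0.745%), with the deposited series table (0.302%) or after centring on GC content (1.32%). The 44 members on array 1 had a median of 0.06, against -0.13 over all genes of that array, and the 38 on array 2 had 0.08, against -0.07. With each gene's median probe in place of its mean, the median over members was 0.02, against -0.0055 over all genes, a narrower gap.

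**Figure D1:**
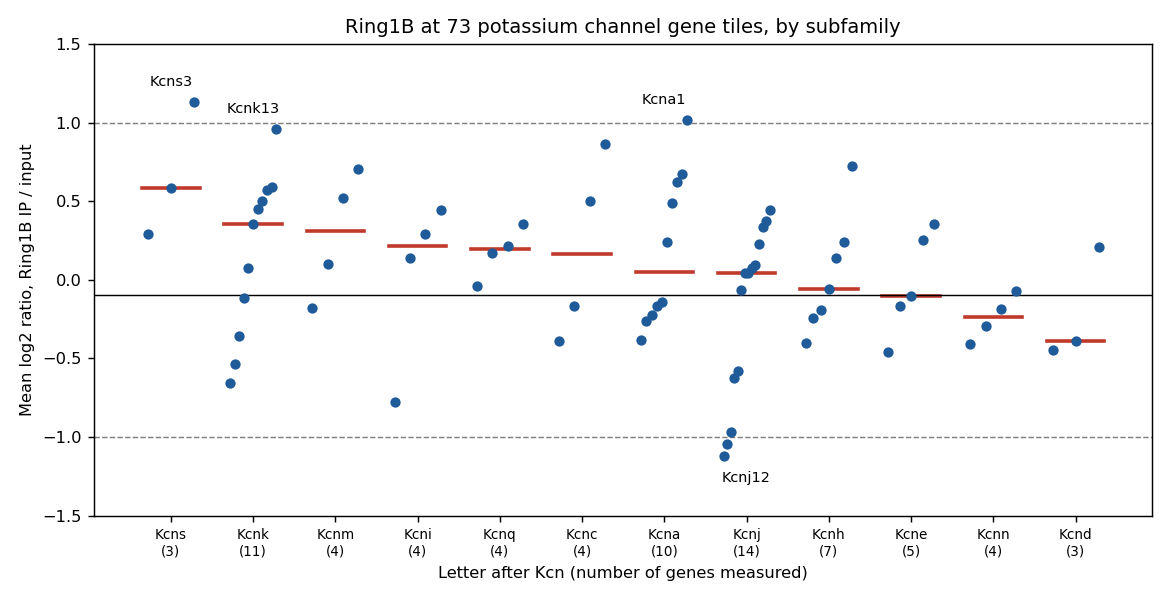
Mean log2 ratio of IP over input (vertical axis) for the 73 potassium channel genes in subfamilies of 3 or more measured genes, by the letter after Kcn (horizontal axis, number of genes in brackets), with points for genes, red bars for subfamily medians, a solid line at the all-gene median of -0.10 and dashed lines at 1 and -1. Kcns3 at 1.13 and Kcna1 at 1.02 lie above the upper dashed line, and Kcnj12 at -1.12 and Kcnj9 at -1.04 below the lower.

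Among the pore-forming voltage-gated subunits, Kcna1 had the highest tile mean. Kcna1 encodes Kv1.1, which dampens firing in axons, and its tile at chr6:126664993-126672885 had a mean of 1.02 ± 1.60 (SD over 39 probes). Values of 1 or more came from 24 of these probes and values of -1 or less from 4. The 7 Kcna genes had a median of 0.24 and ranged from -0.26 for Kcna7 to 1.02, with 4 of them above 0. Kcna3, the channel of T cells, and Kcna2, its neighbour on chromosome 3 with 60528 bp between the tiles, had 0.68 and 0.62. Kcna5, Kcna1 and Kcna6 lie next to each other on chromosome 6 and had -0.14, 1.02 and 0.24, so adjacent tiles of this cluster differed by more than the SD of 0.47 over all members.

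Kcnc genes encode fast channels that shorten action potentials. Kcnc2, the Kv3.2 subunit of fast-firing interneurons, had 0.87 ± 1.38 over 38 probes at chr10:111772008-111780511, with 19 probes at or above 1. Kcnc4 had 0.50. Kcnc1 was lowest with -0.39 ± 1.90 over 44 probes at chr7:42568260-42576252, the widest spread over probes of any member. Its tile held a high stretch of 844 bp with a mean of 1.90 inside the gene and a low stretch of 1126 bp with a mean of -2.33 upstream, so its mean joined opposite values.

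The Kcnd genes, which encode the A-type channels that slow repeated firing, had the lowest median of the subfamilies with 3 or more members, -0.39. Kcnd3 was highest with 0.21 ± 1.19 over 42 probes at chr3:105271610-105279559. Kcnd1 on the X chromosome was lowest with -0.45 ± 0.97 over 27 probes at 6253787 to 6269560, and Kcnd2 had -0.39. The Kcnq genes, which encode the M-current and the cardiac slow channel, had a median of 0.19 and a narrow range. Kcnq5 was highest with 0.35 ± 1.60 over 37 probes at chr1:22153846-22161697, and Kcnq3 lowest with -0.04 ± 1.68 over 35 probes at chr15:66367064-66374965. Kcnq1, known in heart and inner ear, had 0.22.

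Kcnh genes encode the ether-a-go-go family. Their median over 7 genes was -0.06, and it was 0.10 when the arrays were not centred, a setting that put the all-gene median at 0.10 in place of -0.10. Kcnh3, an Elk-type subunit of the forebrain, was highest with 0.72 ± 1.20 over 32 probes at chr15:99204891-99212564. Kcnh2, the Erg subunit that repolarises the heart, was lowest with -0.40 ± 1.75 over 47 probes at chr5:23389884-23402025, and 18 of those probes carry a name joined to a neighbour. Kcnh8 (0.24), Kcnh7 (0.14), Kcnh5 (-0.06), Kcnh6 (-0.19) and Kcnh1 (-0.24) lay between them.

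The silent modifier genes of the Kcns subfamily had the highest median, 0.59 over 3 genes, all above 0. Kcns3 had the highest mean of the potassium channel genes, 1.13 ± 1.30 over 36 probes at chr12:11212641-11219609, 2.19-fold above the median probe. Kcna1 was above it with normexp correction (1.39 for Kcna1 and 1.16 for Kcns3), loess (1.35 and 1.03), the series table (1.35 and 1.14) and the median of the probes (1.25 and 1.14). Values of 1 or more came from 19 of its probes, and 1 probe had -1 or less. Kcns2 had 0.59, and Kcns1 was the lowest of the 3 with 0.29 ± 1.64 over 28 probes at chr2:163909617-163917106. The remaining silent subunits ran from above Kcns1 to below 0, with 0.46 for Kcng3, 0.10 for Kcnf1, -0.02 for Kcnv1, -0.25 for Kcnv2 and -0.65 for Kcng4.

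Of the calcium-activated channels, the large-conductance subunit gene Kcnma1 had 0.70 ± 1.25 over 35 probes at chr14:21662430-21670079, with 15 probes at or above 1. Its neuronal accessory subunit gene Kcnmb4 had 0.52 and Kcnmb2 0.10. Kcnmb1, the smooth muscle accessory subunit, was lowest of the 4 Kcnm genes with -0.18 ± 1.48 over 31 probes at chr11:33909934-33917743. All 4 Kcnn genes, which encode the small- and intermediate-conductance channels, were below 0. Their median of -0.24 turned to 0.05 with normexp background correction and to 0.02 with the deposited series table. Kcnn4 was highest with -0.07 ± 1.03 over 25 probes at chr7:21152617-21160378, and Kcnn1 lowest with -0.41 ± 1.15 over 49 probes at chr8:69297644-69317547. Of the Kcnn1 probes, 31 carry a name joined to a neighbour, and the tile spans 19904 bp. Kcnt1, a sodium-activated channel, had -0.21, and Kcnu1, the sperm channel, had 0.15. Of the 33 Kcnu1 probes, 22 carry a name joined to its neighbour Ash2l.

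Inward rectifiers held both of the lowest members. Over 14 Kcnj genes the median was 0.04 (-0.13 with loess within arrays). Of these genes 0 reached 0.5, against 7.62% of all genes, and 5 had -0.5 or less, against 15.5%. The 5 include Kcnj9 and Kcnj10, which share probes and so are not separate measurements. Kcnj12, the strong rectifier Kir2.2 of heart and muscle, had -1.12 ± 1.54 over 40 probes at chr11:61141956-61149870, with 23 probes at or below -1. Its median processed signal was 862 in IP DNA and 2760 in input DNA. Kcnj9, a G protein-gated subunit, had -1.04 ± 1.42 over 39 probes at chr1:172297361-172309387, and 22 of them are shared with its divergent neighbour Kcnj10, which had -0.62. Without the joined probes Kcnj9 had -0.55, so its place below -1 rested on them. Kcnj11, the pore of the ATP-sensitive channel of beta cells, lay just above the threshold with -0.97 ± 1.74 over 36 probes at chr7:42273738-42280680. Kcnj8, the pore of its vascular counterpart, was the highest with 0.44 ± 0.98 over 34 probes at chr6:142656654-142664491. Kcnj3 (0.38) and Kcnj5 (0.34), which form the acetylcholine-gated channel of the atrium, stood close together, as did Kcnj2 at 0.23.

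The tandem-pore genes had a median of 0.36 over 11 genes and a wide range. Kcnk13, a halothane-inhibited leak channel of microglia, had 0.96 ± 1.46 over 34 probes at chr12:97455886-97463715, just below 1, with 18 probes at or above 1. Its closest relative Kcnk12 had 0.57. Kcnk6 had 0.59 from 8 probes, all under a joined name, the fewest of any member. All 8 lay more than 1000 bp upstream of the array's start of Kcnk6, so this value does not describe the start. Kcnk7 was lowest with -0.66 ± 1.55 over 24 probes at chr19:5597661-5601787, and Kcnk3, the acid-sensitive channel known in lung and adrenal gland, had -0.53.

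Accessory subunit genes ranged from Kcnmb4, described above, down to Kcnip3. The 3 Kcnab genes, whose products bind Kv1 channels, had a median of -0.22, with Kcnab1 lowest of the 10 names beginning with Kcna at -0.38 ± 1.04 over 44 probes at chr3:65206109-65214194. Over 5 Kcne genes the median was -0.11 (0.06 without centring), with Kcne3 at 0.35 ± 1.5 over 37 probes, chr7:96219724-96227464, and Kcne4 at -0.46 ± 1.12 over 35 probes, chr1:79028693-79036241. Kcnip genes encode calcium-binding partners of Kv4 channels and had a median of 0.21 over 4 genes. Kcnip2, known for the cardiac transient outward current, had 0.45 ± 1.40 over 25 probes at chr19:45710454-45714932. Kcnip3, also known as a DNA-binding repressor, had -0.78 ± 1.21 over 39 probes at chr2:127259931-127266989. Kcnrg, a regulator of channel assembly, had -0.04.

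Differences between subfamilies were small beside those within them. Over the 12 subfamilies with 3 or more members (73 genes), 19.8% of the variance of the gene means lay between letters. Any grouping into 12 sets puts part of the variance between them, and no allowance was made for that part. The median SD within a letter was 0.41, against 0.48 over those genes together. Kcns had the highest and Kcnd the lowest median in the whole-tile settings tried. Within 1000 bp of the start, Kcnc was highest with 1.03, ahead of Kcns with 0.96, and Kcnd remained lowest with -0.49. Neighbouring medians such as Kcnk with 0.36, Kcnm with 0.31, Kcnip with 0.21, Kcnq with 0.19 and Kcnc with 0.17 did not differ beyond the spread of their genes.

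The tile means hid where in the tile the signal lay. Averaged over genes of both arrays, the members were highest from 500 to 1000 bp inside the gene, with a mean of 0.40 ± 1.00 (SD, 78 genes), against 0.06 ± 1.18 over 14934 genes of all kinds. In the 500 bp just inside the start the means were 0.38 for members and 0.04 for all genes, and in the 500 bp just upstream 0.31 and 0.05. From -5500 to -5000 bp, upstream, the members had -0.29 and all genes -0.21. The place of the highest bin differed between arrays, from -500 bp to the start on array 1 (0.48) and from 1000 to 1500 bp inside on array 2 (0.44). On array 2 members had 0.11 in the 500 bp just upstream of the start, against 0.08 over all genes. Their 0.37 from -3000 to -2500 bp, against -0.10 over all genes, was close to the 0.38 of the 500 bp just inside the start. Upstream, from -5500 to -5000 bp, members had -0.45 and all genes -0.24 on array 1, and -0.07 and -0.17 on array 2. Probes with floor values in both channels, whose ratio is set by the floor, made up 1.88% of member probes in the 500 bp inside the start and 15.8% from -5500 to -5000 bp. The part of this difference in the profile was not tested.

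**Figure D2:**
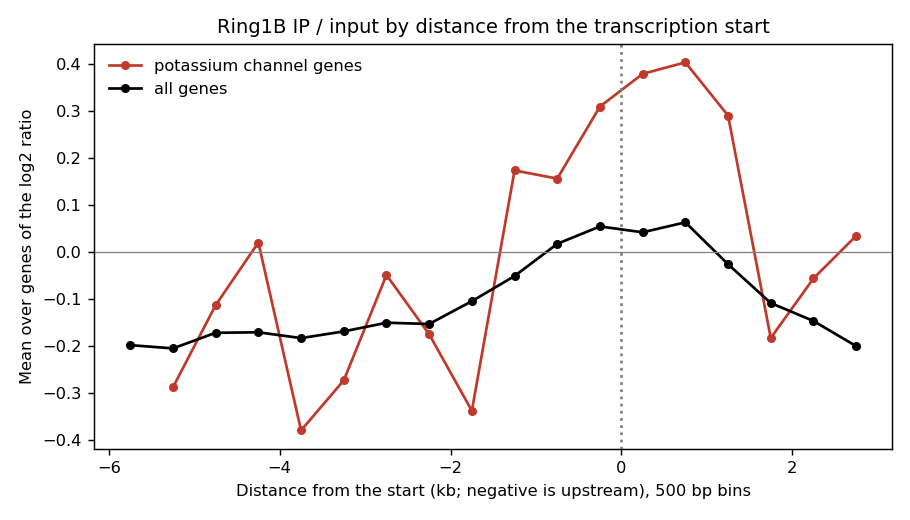
Mean over genes of the log2 ratio of IP over input (vertical axis) in 500 bp bins of distance from the array's transcription start in kb (horizontal axis, negative upstream), for potassium channel genes in red and all genes in black, in bins with at least 20 genes. The red line reaches 0.40 inside the gene, where the black line is at 0.06, and both are below 0 from -5500 to -5000 bp.

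Starts were covered by at least 3 probes within 1000 bp for 80 members, all but Kcnk6 and Kcnj15. The window was chosen after the data had been seen. The median of these start means was 0.39, against 0.03 over 15806 genes with such a window. Pluripotency genes had a start median of 0.38, close to that of the members, with 1 of 9 at or above 1. Hox genes had 1.60, with 29 of 33 at or above 1. At or above 1 were 15 of 80 members (18.8%), against 8.14% of all genes. They were 7 of 43 on array 1 (16.3%), against 7.18% of all genes there, and 8 of 37 on array 2 (21.6%), against 9.18%. With normexp correction 25 members passed, against 11.5% of all genes, and with loess within arrays 24, against 9.93%. At or below -1 were 4 of 80 (5.0%), against 6.58% of all genes.

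Kcna1 had the highest start window, 2.16 ± 1.03 over 11 probes, and its running mean over 500 bp on either side peaked at 2.69, 12 bp from the start. Kcnc2 had 1.93 ± 0.71 and Kcnk13 1.86 ± 0.83, each over 12 probes. Silent subunit Kcng3 had 1.74 ± 1.49 over 8 probes and Kcnq5, an M-current subunit, 1.61 ± 1.48 over 10. Of these 5 genes, Kcna1 alone had a tile mean at or above 1. Pore-forming Kcnc4 (1.41) and Kcna6 (1.02) and silent Kcns3 (1.19) and Kcnf1 (1.03) were also in this group. The tandem-pore genes Kcnk1 and Kcnk12 had 1.29 and 1.10, and the atrial pair Kcnj3 and Kcnj5 had 1.25 and 1.12. The accessory subunit gene Kcnmb4 had 1.11, and Kcnu1, the sperm channel, had 1.04. In the Kcnu1 tile, 22 of 33 probes carry a name joined to its neighbour Ash2l, so the value may not belong to Kcnu1 alone. Just below the threshold stood Kcna3 (0.99), Kcne3 (0.96) and Kcns2 (0.96).

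The 4 low start windows belonged to Kcnj12 with -2.09 ± 1.24 over 8 probes, Kcnj16 with -1.40, the Erg-type Kcnh6 with -1.23 and the silent subunit Kcng4 with -1.05. Kcnj11 differed from Kcnj12 in place: its start mean was -0.22 and its mean further than 1000 bp upstream was -1.92. Kcnj10 was also split, with 0.35 at the start and -1.35 upstream. Of its 62 probes, 22 are shared with its divergent neighbour Kcnj9, and both tiles had the same lowest running mean, -3.21. The upstream value is therefore not particular to Kcnj10. Across 76 members with 3 or more probes in each place, the start mean and the upstream mean had a Pearson r of 0.30 and a Spearman rho of 0.29, values of one array per gene given as a description. A high start window therefore went with upstream values from -0.34 for Kcnj5 to 1.01 for Kcnk13.

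**Figure D3:**
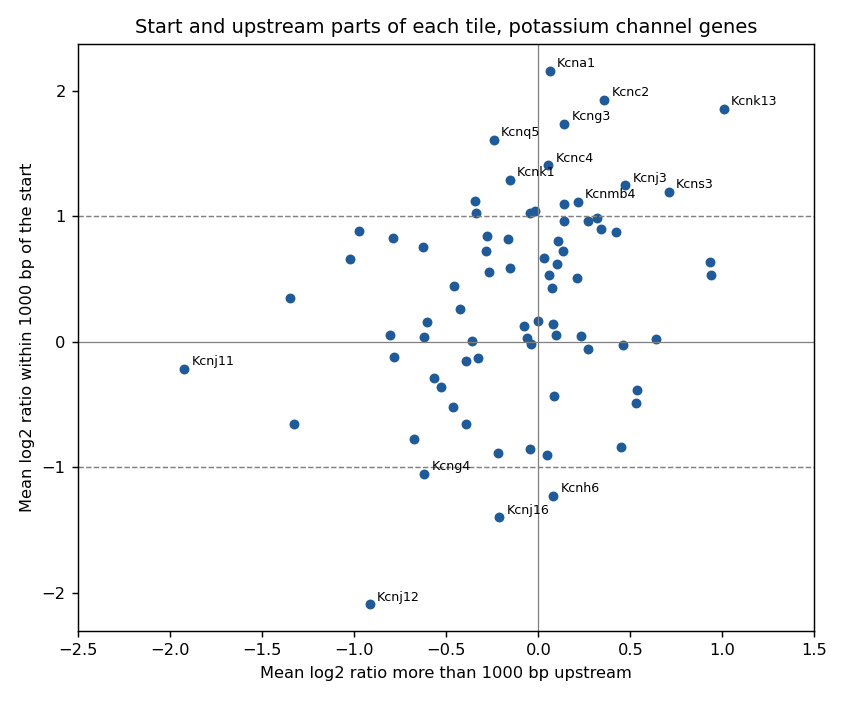
Each point is one of 76 potassium channel genes, with the mean log2 ratio of IP over input within 1000 bp of the start on the vertical axis and the mean more than 1000 bp upstream on the horizontal axis, and dashed lines at 1 and -1. Kcna1, Kcnc2 and Kcng3 lie high at the start with upstream means of 0.06, 0.36 and 0.14, while Kcnk13 is high in both places and Kcnj11 is low only upstream.

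Continuous stretches were sought where the running mean was 1 or more at 3 or more probes in a row, less than 1000 bp apart. A stretch of at least 2000 bp touched 4 of 82 members (4.88%), against 3.00% of all genes. Kcna1 had the longest, 3466 bp with a mean of 1.82 over 21 probes at chr6:126665464-126668929. Kcnk13 followed with 3422 bp, a mean of 1.69 and 21 probes at chr12:97458945-97462366. Kcnc2 had 2686 bp with a mean of 1.75 over 16 probes at chr10:111775903-111778588, and Kcnq5 had 2218 bp with a mean of 1.62 over 12 probes at chr1:22155897-22158114. All 4 stretches covered the array's start of the gene. With the sign turned, 3 of 82 members had a stretch of that length, against 0.934% of all genes: Kcnj12 with 2838 bp and a mean of -1.75, Kcnj11 with 2408 bp and -2.30, and Kcnip3 with 2292 bp and -1.57. With normexp correction 10 members had a high and 0 a low stretch, against 4.18% and 0.118% of all genes, and the deposited series table gave 9 and 0, against 3.96% and 0.136%. With a running mean over 1000 bp on either side, 7 members had a high stretch, against 4.01% of all genes, and 2 (2.44%) a low one, against 3.08%. At a running mean of 1.5 the high count was 1 (1.22%), against 1.17% of all genes.

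At a length of at least 1000 bp, high stretches touched 17 of 82 members (20.7%), against 8.10% of all genes, and low stretches 11 (13.4%), against 9.91%. Those with a high stretch included 4 of 7 Kcna genes (Kcna1, Kcna2, Kcna3 and Kcna6), Kcnc2 and Kcnc4, and Kcnma1 with its partner Kcnmb4. Low stretches touched 3 of the 7 Kcnh genes, Kcnh1, Kcnh2 and Kcnh6, and 4 of 14 Kcnj genes, of which Kcnj9 and Kcnj10 share theirs. The longest stretch measured 3466 bp on the high side and 2838 bp on the low side.

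**Figure D4:**
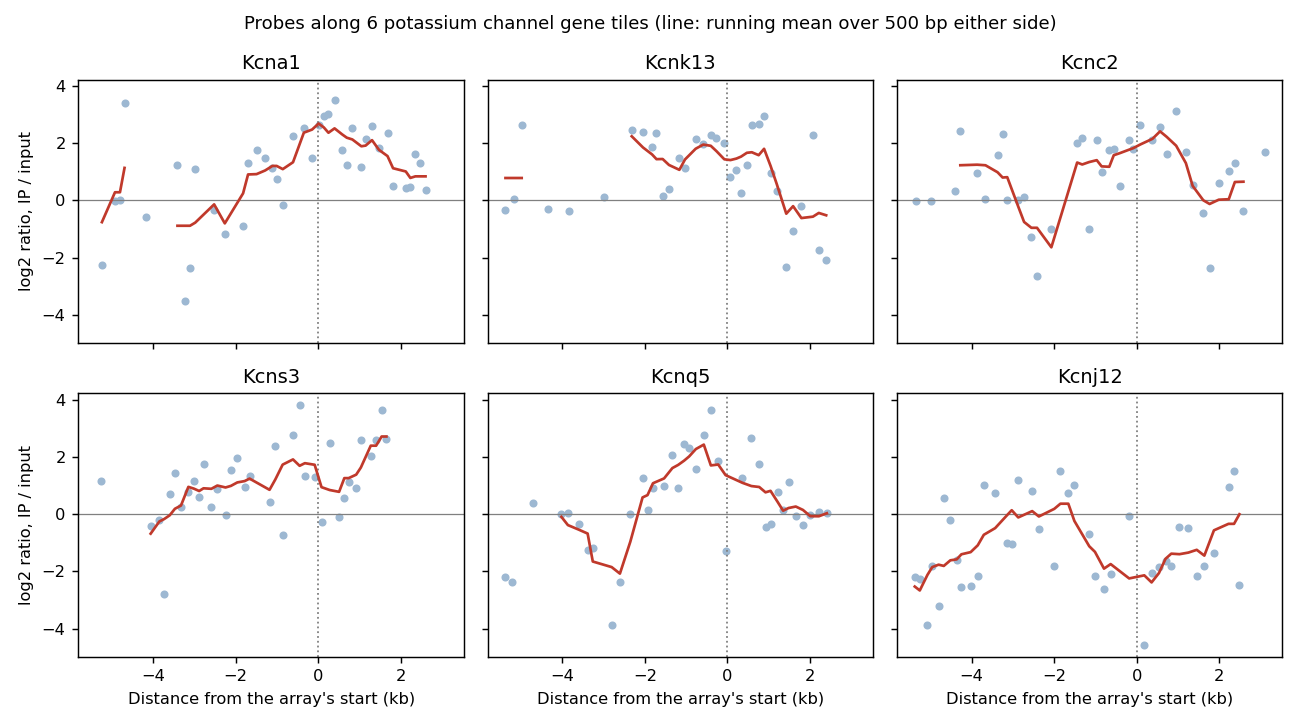
Single probes (points) and the running mean (red line) of the log2 ratio of IP over input (vertical axis) against distance from the array's start in kb (horizontal axis) for Kcna1, Kcnk13, Kcnc2, Kcns3, Kcnq5 and Kcnj12. The first 3 and Kcnq5 stand above 1 around the start over 2218 to 3466 bp, Kcns3 is high at several places, and Kcnj12 is below -1 over 2838 bp.

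Kcns3 differed from Kcna1 in shape. Its longest run measured 1070 bp with a mean of 2.00 and lay inside the gene, at the edge of the tile, so its full length was not measured. The running mean of Kcns3 peaked at 2.71 at the last probe, 1656 bp from the array's start. It was also between 1.21 and 1.91 from -1036 to -83 bp, and fell to 0.78 at 509 bp, between these places. The RefSeq promoter of Kcns3, which lies 438 bp upstream of the array's start by sequence match of probes, held 2 probes at 2.77 and 3.80. In Kcnk13, Kcnc2 and Kcnq5 the array's start lay 1441, 1071 and 1040 bp downstream of the RefSeq start. The RefSeq windows of Kcnk13 and Kcnc2 held probes with means of 0.29 (2 probes) and -1.01 (1 probe), lower than their start windows, and that of Kcnq5 held 2 probes with a mean of 1.68. The high stretches of Kcnk13 and Kcnc2 thus held lower probes at the RefSeq start. For 30 members the starts of both sources lay within 100 bp.

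CpG content moved with the ratio at the level of probes. Member probes without CpG had a mean of -0.12 (1609 probes), those with 1 CpG 0.11, with 2 to 3 CpG 0.49, with 4 to 5 CpG 0.70 and with 6 or more 0.77 (26 probes). Over all probes the means were -0.17, -0.04, 0.18, 0.32 and 0.48 in the same order. Probes with more CpG also had more input signal, with a median of 1598 for member probes with 6 or more CpG and 320 for those with none. The part of probe chemistry in this pattern was not tested.

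**Figure D5:**
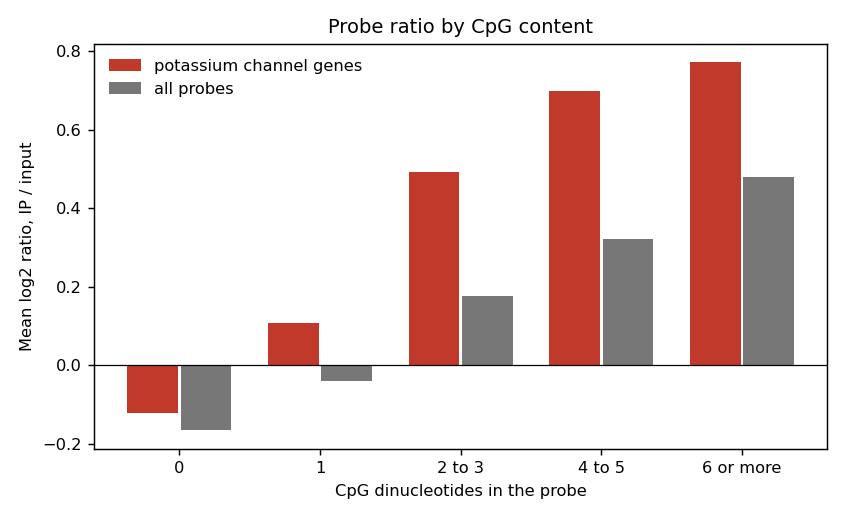
Mean log2 ratio of IP over input (vertical axis) of probes grouped by their number of CpG dinucleotides (horizontal axis), with red bars for probes of potassium channel genes and grey bars for all probes. Both sets increase from left to right, to 0.77 for potassium channel probes and 0.48 for all probes with 6 or more CpG.

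Across genes, CpG per probe and the tile mean had a Pearson r of 0.38 and a Spearman rho of 0.38 over 82 members, against 0.24 and 0.21 over all genes, as a description without a test. Start windows were also read within classes of CpG per probe, set after the data had been seen. With under 1 CpG per probe, 2 of 30 members (6.67%) were at or above 1, against 2.65% of all genes, with 1 to under 2 CpG 7 of 31 (22.6%), against 11.2%, and with 2 or more 6 of 19 (31.6%), against 13.5%. The members' share was above that of all genes in each class, though in the class under 1 CpG it rested on 2 genes. In that class the members' median start value was -0.23, below the -0.14 of all genes. In the other classes it was 0.59, against 0.12, and 0.66, against 0.22. Counted in the RefSeq window of 250 bases before to 50 after the start, CpG number had a Spearman rho of 0.18 with the tile mean over 62 members and of 0.14 with the start mean over 61. The median window of 13 members at or above 1 at the start held 10 CpG, and that of 48 members below 1 held 14, against 7 over all 27025 RefSeq promoters. Where a member has several windows (14 members), the one that held the most of its probes was counted, and the first where windows tied. Over all RefSeq promoters the first window per gene was counted.

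Other genes of excitable cells were measured for comparison. Neurotransmitter receptor genes were close to the potassium channel genes at the start, where 19 of 89 genes (21.3%) reached 1 and the median was 0.39. Of all genes, 8.14% reached 1 there. The tile median of the receptor genes was 0.02 over 91 genes, and 2 (2.2%) were at or above 1, against 1.99% of all genes. Highest were Adrb1 (1.21), Grin2a (1.11) and Adra2a (0.97). Other ion channel genes, for sodium, calcium, chloride and cation channels, had a tile median of -0.11 over 81 genes with 0 at or above 1, and a start median of 0.11 with 6 of 74 (8.11%) at or above 1. Trpm6 (0.97), Trpm1 (0.88) and Cacna2d3 (0.66) were their highest and Scn3b (-1.04) their lowest. Of the 12 measured partner genes of potassium channels, 0 were at or above 1 in the tile or at the start. Amigo1 (0.31) was the highest and Hcn3 (-0.99) the lowest, and Dpp10 had 0.24 from 4 probes. Abcc8, the regulatory partner of Kcnj11, had 0.16, against -0.97 for Kcnj11.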

How the data were processed

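Ring1B IP DNA (Cy5) and input DNA (Cy3) of mouse ES cells were compared on 2 Agilent promoter arrays, designs 014716 and 014717. The array files hold a fluorescence intensity per spot, which the authors made with Agilent Feature Extraction 9.1.3.1 by subtracting background and scaling each channel by 1 linear factor (per the file headers). The deposited series table holds the log2 ratio of mean signals, not centred, which matched the array files to 5e-05 (column medians 0.774 and 0.798). Control spots and 141 and 17 outlier probes were left out, which left 237054 and 237168. Each array's log2 ratios of processed signals, red over green, were centred on the median probe (0.23 and 0.16 before centring). Floor values filled both channels at 18.2% and 15.5% of the probes.

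Members and lists were chosen with earlier results of these data known. Full values were given for members past 1 or -1, the 3 next on either side, the highest and lowest of each letter with at least 3 members, and members with a region of at least 2000 bp, and in other lists for the 3 highest and the lowest genes. A few genes that this rule takes are not reported here. With 1 array per gene, genes are described by size without a test. Starts are those annotated for array 1 and, for array 2, the boundary between promoter and inside probes. Alternatives included normexp (offset 50) and loess with limma 3.58.1. The procedure was tested on simulated data. RefSeq promoters (GRCm38.p6) were joined to probes by exact sequence.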

Additional observations from a re-analysis of the deposited data

How the results depend on the processing

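All 815 whole-tile values of members under the alternatives lay within 1 SD over probes of the value reported, a wide yardstick. Kcns3 ranged from 1.03 to 1.29, Kcna1 from 0.98 to 1.39, Kcnj12 from -1.61 to -0.73 and Kcnj9 from -1.24 to -0.46. Kcnj9 was below Kcnj12 with normexp (-0.76 and -0.73) and loess (-1.01 and -0.85). Members at or above 1, 2 as reported, numbered 4 without centring (2.99% of all genes) and 1 without probes dim in input (2.31%). They numbered 4 by the median of the probes (2.39%) and 15 within 1000 bp of the start (8.14%). Members at or below -1, also 2, numbered 0 with normexp (0.361% of all genes), 1 with loess (1.66%) and 0 without centring (0.745%). They numbered 0 with the series table (0.302%), 1 by the median (1.69%) and 0 after centring on GC content (1.32%). Without joined names they numbered 1 (2.4%) and at the start 4 (6.58%). The start count of 15 was 25 with normexp (11.5% of all genes), 24 with loess (9.93%), 24 without centring (12.3%) and 24 with the series table (10.7%). The share of all genes thus rose in these settings too.

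The 4 genes with a region of at least 2000 bp (3.00% of all genes) became 7 with a running mean over 1000 bp (4.01%). At a running mean of 1.5 the count was 1 (1.22%), near the 1.17% of all genes. It was 17 at 1000 bp (8.10% of all genes), 2 at 3000 bp (1.40%), 10 with normexp (4.18%) and 9 with the series table (3.96%). The 3 low regions (0.934% of all genes) became 2 with a running mean over 1000 bp (3.08%), 0 at 1.5 (0.0887%) and 11 at 1000 bp (9.91%). They were 0 at 3000 bp (0.0591%), 0 with normexp (0.118%) and 0 with the series table (0.136%). Of 132 subfamily medians under the alternatives, 123 moved by less than the SD over genes. Kcnn, -0.24 as reported, had 0.054 with normexp, -0.043 without centring, 0.023 with the series table and -0.44 at the start. Kcnq, 0.19 as reported, had 0.44 with normexp, 0.42 without centring, 0.44 with the series table and 0.71 at the start, and Kcnc had 1.03 at the start. Kcna, 0.05 as reported, had -0.14 with at least 20 probes per gene.

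Other ion channel genes at or above 1, 0 of 81 as reported, numbered 2 without centring, 1 without dim probes, 1 without floor probes and 6 of 74 at the start. Neurotransmitter receptor genes, 2 of 91 as reported, numbered 6 with normexp, 7 without centring, 6 with the series table and 5 without dim probes. They numbered 5 without floor probes, 4 by the median, 5 after centring on GC content and 19 of 89 at the start. Over all genes the share at or above 1 was 1.99% as reported, 2.64% with normexp, 2.99% without centring and 2.56% with the series table. It was 2.31% without dim probes, 2.57% without floor probes, 2.39% by the median, 2.29% after centring on GC content and 8.14% at the start. The all-gene median, -0.10 as reported, was 0.01 with normexp, 0.02 with the series table, 0.10 without centring and -0.28 without dim probes, and the members' median was above it in each of these settings. By the median of the probes the gap was narrower, with 0.02 for the members and -0.0055 for all genes. The start window was chosen after seeing the data, and the causes of these shifts were not tested. The handling of background and 1 array per gene limit what the low ratios show. Without probes dim in input, 2 members were at or below -1, against 7.51% of all genes. Floor values filled both channels at 0 of 40 Kcnj12 probes and 6 of 39 Kcnj9 probes. The tile mean and the log2 input signal had a Pearson r of -0.29 over members and -0.25 over all genes. The part of input signal in the low ratios was not tested. No paired analysis was possible because the result comes from no test and no sample has a replicate.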
